A study of Mus musculus with 6 samples.

Results

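The imprinted Dlk1-Dio3 locus of the mouse carries a large group of microRNAs (miRNAs), and 31 assays of this series read them. The members were chosen by name: every mouse-named assay, without a star, whose number is among 47 miRNA numbers of the locus. They come from 28 precursors and are 31 of the 345 miRNA assays with normalised values. Among the other assays of the series, 4 also carry a number from these 47, 3 for star strands and 1 with a human name.

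The RNA came from CD8+ pMel-1 transgenic T cells of the mouse, whose receptor recognises gp100, a melanoma antigen, and each miRNA was read by quantitative RT-PCR with SYBR Green. All cells were primed in culture for 3 days. In the DC-primed group (n = 3) the priming cells were dendritic cells grown from bone marrow and matured with lipopolysaccharide, and in the B cell-primed group (n = 3) they were splenic B cells loaded with an hgp100 peptide, which the labels name for the B cells only. Each of 3 rounds gave 1 sample per group. No label says that rounds used separate animals, and p-values therefore cover only the spread between these 6 samples. Nor do the labels say whether the priming cells were removed before RNA was taken. As in any bulk sample, fewer cells of a type and less RNA per cell cannot be told apart.

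In the Dlk1-Dio3 domain the maternally inherited chromosome expresses the non-coding RNAs Meg3, Rian and Mirg together with the miRNAs, while the paternally inherited chromosome expresses the protein-coding genes Dlk1, Rtl1 and Dio3. The miRNAs fall into a stretch around Meg3 and Rtl1, in which several hairpins lie antisense to Rtl1 and can direct cleavage of its RNA, a short stretch in Rian, and the long miR-379/miR-410 cluster that ends in Mirg. The locus is best known in embryo, placenta, brain and muscle, and the miR-379/miR-410 cluster is induced by neuronal activity through Mef2.

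The sequences below are the mature miRNAs on which the results turn, taken from RefSeq (GRCm38.p6), written 5′ to 3′ with the seed, bases 2 to 8, in capitals. Of the 31 members, 29 matched a RefSeq mature sequence by name, and miR-299 and miR-496 did not. Only 11 assay names give the arm of the hairpin. The other 20 do not, so for miR-370, miR-667, miR-758, miR-154, miR-329, miR-379 and miR-411 both arms are shown, and the assay may read either. For miR-487b the table held only the 5p arm. The arms of miR-337 and miR-380 are shown because both were assayed by name.
miR-323-5p: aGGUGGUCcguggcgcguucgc
miR-758-5p: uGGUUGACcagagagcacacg
miR-758-3p: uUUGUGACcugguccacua
miR-487b-5p: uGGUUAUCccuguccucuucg
miR-667-5p: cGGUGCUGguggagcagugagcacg
miR-667-3p: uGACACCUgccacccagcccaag
miR-370-5p: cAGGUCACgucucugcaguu
miR-370-3p: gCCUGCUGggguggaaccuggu
miR-666-5p: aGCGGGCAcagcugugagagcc
miR-154-5p: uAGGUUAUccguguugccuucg
miR-154-3p: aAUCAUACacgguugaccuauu
miR-409-5p: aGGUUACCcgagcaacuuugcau
miR-329-5p: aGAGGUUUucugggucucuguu
miR-329-3p: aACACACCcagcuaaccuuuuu
miR-379-5p: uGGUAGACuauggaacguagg
miR-379-3p: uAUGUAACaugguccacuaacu
miR-411-5p: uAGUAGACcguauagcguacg
miR-411-3p: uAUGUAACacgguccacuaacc
miR-337-5p: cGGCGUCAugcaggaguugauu
miR-337-3p: uCAGCUCCuauaugaugccuuu
miR-380-5p: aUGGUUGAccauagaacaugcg
miR-380-3p: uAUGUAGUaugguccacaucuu

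All matched hairpins lie on the plus strand of chromosome 12. The miR-770 hairpin lies within Meg3, those of miR-337, miR-433 and miR-434 within the span of Rtl1, those of miR-341 and miR-370 within Rian, and those of miR-154, miR-369, miR-377 and miR-409 within Mirg in the RefSeq annotation. Mature miR-323-5p lies at chr12:109712523-109712544, miR-758-5p at chr12:109712823-109712843 and miR-758-3p at chr12:109712858-109712876. miR-370-3p lies at chr12:109618305-109618326 and miR-154-5p at chr12:109738438-109738459. Among the 45 mature sequences matched to members, only miR-379-3p and miR-411-3p had the same seed (AUGUAAC). The seed is the main determinant of target choice, and neighbours on the chromosome mostly differed in it.

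Most of the assayed members gave a signal in these T cells. A raw threshold cycle (Ct) below 35 was recorded for 30, 28 and 27 of the 31 members in DC-primed samples 1, 2 and 3, and for 31, 30 and 30 in B cell-primed samples 1, 2 and 3. In all 6 samples 27 members (87.1%) were below 35, against 81.1% of the other 217 mouse assays without a star. Of 186 member readings, 10 were at 35 or above, 8 after DC priming and 2 after B cell priming. The share below 35 over all assays with both values was 95.6%, 93.0% and 80.5% after DC priming (samples 1 to 3). After B cell priming it was 96.5%, 95.3% and 95.3%, so readings were lost in DC-primed samples across the panel as well. The median member Ct was 29.2, 30.6 and 31.9 after DC priming and 28, 29.2 and 29.2 after B cell priming (samples 1 to 3), so the members were latest in DC-primed sample 3. That sample was late over all miRNA assays as well, with a median Ct of 31.8 against 27.5 to 29.6 in the other 5.

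A Ct below 35 does not by itself identify the RNA. The 11 human-named assays for miR-512 to miR-527, miRNAs of primates, had a median of their mean Ct of 29.5 in these mouse cells, and 9 of them were below 35 in all 6 samples. The mean Ct of 18 members was later than that median and of 13 earlier. Only 6 members had a mean Ct earlier than that of the earliest such assay, 25.3 cycles: miR-154, miR-370, miR-668, miR-770-5p, miR-337-5p and miR-377.

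**Figure D1:**
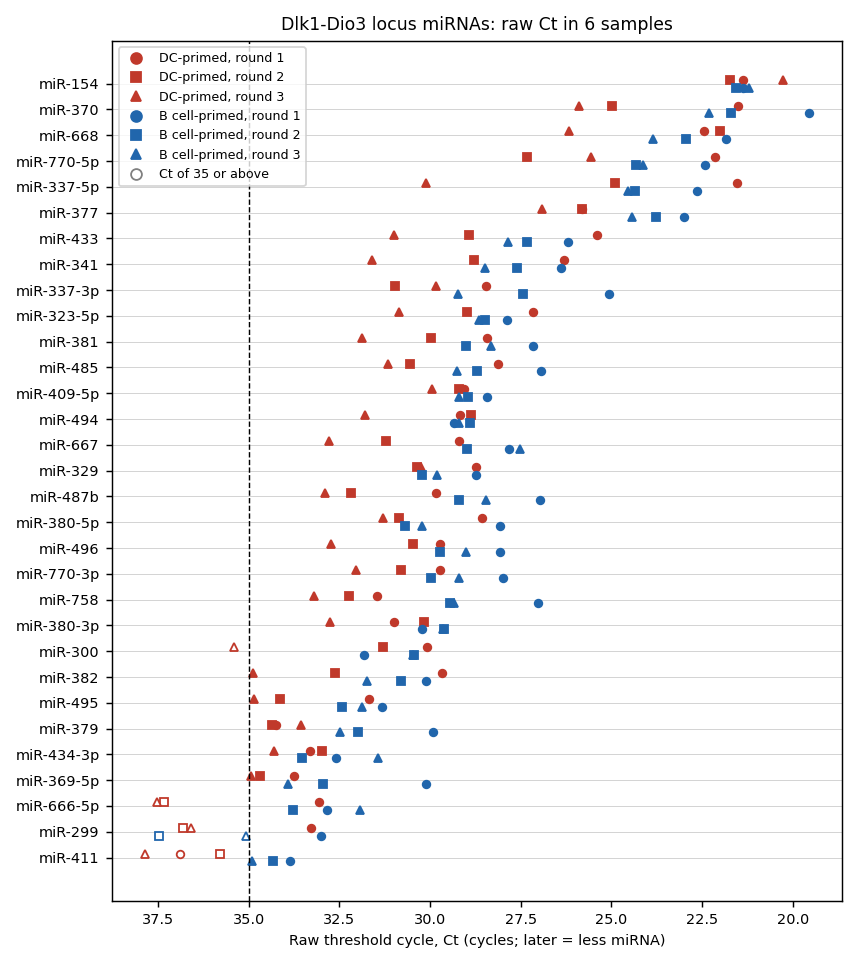
Raw Ct (x axis, cycles, earlier to the right) of the 31 members in 3 DC-primed and 3 B cell-primed samples, 1 point per sample, sorted by mean Ct. Open points are at 35 or above (dashed line). miR-154 is earliest by the mean over all 6 samples, with 21.38, 21.73 and 20.26 in the DC-primed group and 21.37, 21.57 and 21.2 in the B cell-primed group, where miR-370 is earlier by its mean. miR-411 is latest.

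Levels below are minus dCt, the authors' normalised value with its sign turned: a step of 1 is a doubling, and higher values stand for more miRNA. They are relative to 1 number per sample and depend on each assay's primer, so an order among members is an order of assay signal. By mean level the order began with miR-154, miR-370, miR-668, miR-770-5p, miR-337-5p and miR-377, and ended with miR-666-5p, miR-299 and miR-411. Of the 30 steps between neighbours in that order, 2 exceeded the SD over the 6 samples of both members, from miR-377 at 2.75 to miR-433 at -0.08 and from miR-382 at -3.94 to miR-495 at -5.02. At the other steps neighbours did not differ beyond their spread. The order of the 27 members below 35 throughout was similar in every sample, with Spearman's rho across members of 0.72 (DC-primed sample 2 against B cell-primed sample 1) to 0.91 (B cell-primed samples 1 and 2). This is a description of 27 assays, each read with the same primers in every sample, and members are not replicates.

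The comparison asked whether the priming cell set the level of these miRNAs. No member passed the test. limma, fitted on all 274 assays with a Ct below 35 in every sample, called 0 of the 27 members tested and 0 of 274 assays (0%) at an adjusted p under 0.05. The 2 members with an unadjusted p under 0.05, miR-758 and miR-487b, were lower in DC-primed cells, a direction in which 7.3% of all tested assays passed that level, and no member passed it in the other direction (1.46% of all). When limma took the rounds as a block, 0 members were called, and the smallest adjusted p among them was 0.229, for miR-758. Over all settings run, the smallest adjusted p of a member was 0.136 and the largest 1.

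Although no single member was called, the signs were uneven. Of 27 tested members 18 were lower and 9 higher in DC-primed cells, whereas 46.7% of all tested assays were lower and 53.3% higher. The median difference was -0.31 over the members and 0.07 over all tested assays. A difference of -1 or below was found for 7 members (15.3% of all assays) and of 1 or above for 2 (16.8% of all). The member median was -0.89, 0.16 and -0.0049 in rounds 1, 2 and 3, with 21, 13 and 14 of 27 members lower. On the authors' scale the shift toward B cell-primed cells thus lay in round 1. Without both samples of round 1 the member median was 0.025. Over all tested assays the round medians were -0.27, 0.45 and -0.03. On raw Ct the round pattern was another. The median Ct of tested members was 28.74 (DC-primed) against 27.82 cycles in round 1. It was furthest apart in round 3, at 31.59 against 29.19.

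DC-primed sample 1, which had the lowest member levels on the authors' scale, also had the highest myeloid signal. The median level of tested members was -2.56, -1.91 and -1.13 after DC priming and -1.47, -1.87 and -1.56 after B cell priming (samples 1 to 3), and the groups overlapped. On raw Ct their median was 28.74, 30.37 and 31.59 cycles after DC priming, so sample 1 was the earliest DC-primed sample. After B cell priming it was 27.82, 28.99 and 29.19 cycles. Of the myeloid and dendritic marker list 7 of 7 miRNAs were measured, 5 below 35 in all samples and 2, miR-223 and miR-146b, above it in DC-primed sample 3. Their summed level on the log2 scale was 2.99 to 7.41 in DC-primed, highest in sample 1, and 1.55 to 2.22 in B cell-primed samples. The part of these cells in the member values was not tested. Of the lymphocyte list 6 of 6 were measured, but miR-142-3p had no Ct in DC-primed sample 3, where the authors' dCt is a filled-in value. Without it the other 5 were at 8.37, 8.58 and 4.15 after DC priming and 5.98, 6.79 and 6.22 after B cell priming, and DC-primed sample 3 was lowest. The stromal and endothelial list, over the 6 of 10 with a Ct in every sample, was at -0.92 to 1.5 and 0.30 to 0.42, and the neural and muscle list (5 of 10) at 0.72 to 1.76 and 0.24 to 0.67.

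**Figure D2:**
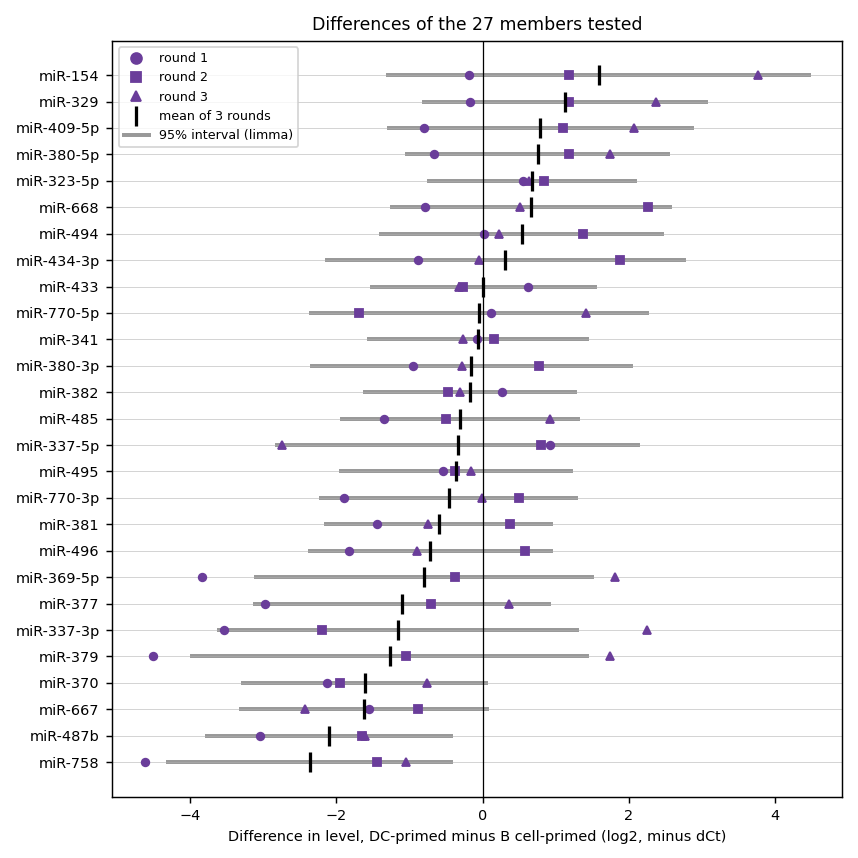
Difference in level (x axis, log2, DC-primed minus B cell-primed) of the 27 members tested. Points are the 3 rounds, black bars the mean and grey lines limma's 95% interval with n = 3 per group. miR-758 and miR-487b are the only members whose interval lies wholly below 0, and none passed the adjusted threshold.

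The members with the steadiest difference toward B cell-primed cells were miR-758, miR-487b, miR-667 and miR-370. These are 4 of the 5 tested members lower in every round on the authors' scale (12.8% of all tested assays), miR-495 being the fifth. They are also the only 4 tested members whose DC-primed values on that scale all lay below the B cell-primed ones (8.03% of all).

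miR-758, from the miR-379/miR-410 cluster, was at -5.28, -3.77 and -2.74 after DC priming and -0.67, -2.33 and -1.70 after B cell priming (samples 1 to 3). All DC-primed values were the lower ones, though the closest samples of the groups were 0.42 apart. The difference was -2.37 ± 0.85 (SE; 95% interval -4.30 to -0.44, limma adjusted p = 0.436). Without round 1, in which it was largest, the difference was -1.24.

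miR-487b, from the same cluster, was at -3.66, -3.72 and -2.44 in the DC-primed group and -0.62, -2.08 and -0.83 in the B cell-primed group. The groups were apart by 0.37, and the differences in the 3 rounds were -3.04, -1.64 and -1.61. Their mean was -2.10 ± 0.73 (SE; 95% interval -3.76 to -0.44, limma adjusted p = 0.436). In the authors' deposited table its paired p was 0.0467, as 1 of 2 members under 0.05. There 3.77% of all 345 assays were under 0.05 toward B cell-primed and 1.45% toward DC-primed cells.

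miR-667, also of this cluster, was at -3.02, -2.75 and -2.31 after DC priming and -1.47, -1.87 and 0.11 after B cell priming. DC-primed values were close together and B cell-primed sample 3 stood highest. The difference was -1.62 ± 0.74 (SE; limma adjusted p = 0.56), and -1.03 without B cell-primed sample 3.

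miR-370, from the Rian stretch, was among the strongest signals of the locus, below miR-154 and miR-668 by mean level after DC priming and highest after B cell priming. Its level was 4.67, 3.47 and 4.56 in the DC-primed group and 6.80, 5.41 and 5.31 in the B cell-primed group. The groups were 0.64 apart on the authors' scale, the widest gap among the members there, and the difference was -1.61 ± 0.73 (SE; limma adjusted p = 0.56). Its neighbour in Rian, miR-341, was at -0.12, -0.32 and -1.13 against -0.05, -0.48 and -0.86, with a difference of -0.06 ± 0.65 (SE; 95% interval -1.55 to 1.42).

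The scaling bears on all of these. Raw Ct values shifted every difference by -1.33 against the authors' scale, and a scale set on 2 small RNAs, RNY3 and snoRD47, shifted it by 1.23. On raw Ct, 16 members were lower in every round (42% of all tested assays) and 0 higher (0.73%). On the small RNA scale 0 were lower (2.55%) and 8 higher (36.9%). miR-758, miR-487b, miR-667 and miR-370 kept a negative difference on both scales, as did miR-379 (-2.60 and -0.045). That follows by construction for any member lower by more than 1.23 on the authors' scale, and is no support for the 4. Over all settings run the differences of the 4 ranged from -3.70 to -0.38. On raw Ct the groups overlapped for miR-370 but not for miR-758, miR-487b and miR-667. On the small RNA scale the groups overlapped for all 4.

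mmu-mir-323-5p was the only tested member with all DC-primed values above the B cell-primed ones on the authors' scale (5.47% of all tested assays). With miR-494 it was 1 of 2 higher in every round (12.8%). It was at -0.97, -0.53 and -0.39 after DC priming and -1.52, -1.37 and -1.03 after B cell priming, the groups being 0.06 apart. The round differences of 0.55, 0.84 and 0.64 were small and even. limma gave 0.67 ± 0.62 (SE; 95% interval -0.73 to 2.08, adjusted p = 0.961), while the authors' deposited table, which uses the pairs, lists p = 0.0155. On raw Ct its difference was -0.66, the opposite direction.

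The Ct difference between 2 assays of 1 sample does not depend on the scaling, which allows close neighbours to be compared. The hairpins of miR-323 and miR-758 start 0.302 kb apart. The Ct of miR-758 minus that of miR-323-5p was 4.31, 3.24 and 2.35 cycles in the DC-primed group and -0.85, 0.96 and 0.67 in the B cell-primed group, means of 3.30 ± 0.98 and 0.26 ± 0.97 (SD, n = 3 each). The groups did not overlap, so these neighbours differed unequally between the groups. miR-329, on the other side of miR-758 at 0.671 kb, gave a Ct minus that of miR-758 of -2.72, -1.86 and -2.94 against 1.72, 0.77 and 0.47 cycles.

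Between miR-381 and miR-487b, 0.511 kb apart, the values for miR-487b minus miR-381 were 1.4, 2.22 and 1.02 cycles after DC priming and -0.2, 0.2 and 0.15 after B cell priming, again without overlap. These are 3 of the 8 pairs of members on consecutive member hairpins under 1 kb apart, and all 3 contain miR-758 or miR-487b. In the other 5 the groups overlapped. Among all 351 pairs of tested members 67 (19.1%) did not overlap, against 13.8% of all pairs of tested assays, and of the 51 member pairs that contain miR-758 or miR-487b 29 (56.9%) did not. The 3 neighbour pairs thus hold the members already seen to differ most, and nothing particular to neighbours is read from them. The pairs were examined after the single members had been seen, so they are given as values without a test.

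**Figure D3:**
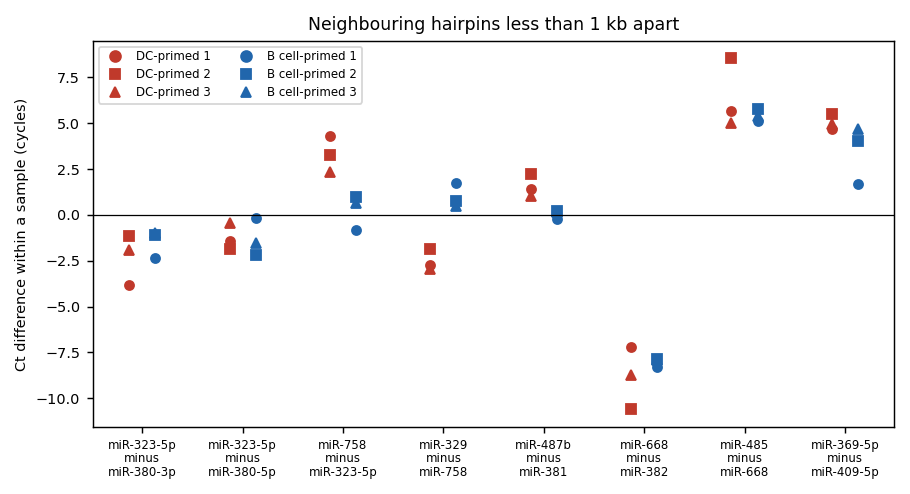
Ct difference within a sample (y axis, cycles) for the 8 pairs of members on consecutive member hairpins starting under 1 kb apart, 1 point per sample. The groups are apart for miR-758 minus miR-323-5p, miR-329 minus miR-758 and miR-487b minus miR-381, and overlap for the other 5 pairs.

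The stretches of the locus were not tested against each other. The 6 tested assays of the Meg3 and Rtl1 stretch had a median difference of -0.20, the 2 of the Rian stretch -0.84 and the 19 of the miR-379/miR-410 cluster -0.31. Within the cluster the range was from miR-758 at -2.37 to miR-154 at 1.59, so members of 1 cluster covered the range of the whole locus.

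**Figure D4:**
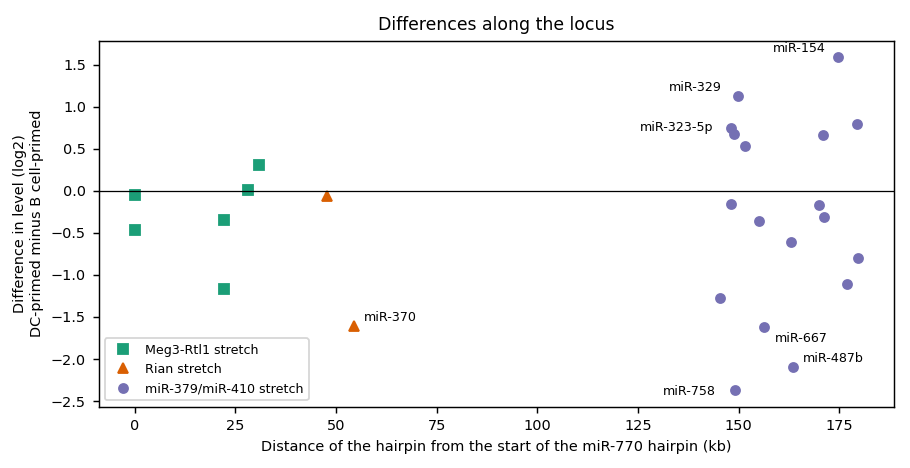
Difference in level (y axis, log2, DC-primed minus B cell-primed) against the distance of the hairpin from the start of the miR-770 hairpin (x axis, kb), for the 26 tested members with a RefSeq hairpin, 1 point per member. The miR-379/miR-410 cluster spans -2.37 to 1.59.

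In the Meg3 and Rtl1 stretch mmu-miR-433, which is antisense to Rtl1, had the smallest difference. The level of mmu-miR-433 was 0.78, -0.47 and -0.54 in the DC-primed group and 0.16, -0.21 and -0.22 in the B cell-primed group, and the groups overlapped. Its difference was 0.01 ± 0.67 (SE), and the 95% interval ran from -1.52 to 1.54. miR-434-3p, also within the span of Rtl1, was at -7.13, -4.52 and -3.85 against -6.24, -6.40 and -3.80 (0.31 ± 1.07, SE).

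The miR-337 hairpin gave arms that varied apart. miR-337-5p was at 4.64, 3.57 and 0.34 after DC priming and 3.72, 2.77 and 3.08 after B cell priming, with DC-primed sample 3 far below the rest. miR-337-3p was at -2.27, -2.51 and 0.64 against 1.27, -0.32 and -1.61, with DC-primed sample 3 above the other DC-primed samples. The Ct of the 3p minus the 5p assay was 6.91, 6.08 and -0.3 cycles in the DC-primed group and 2.45, 3.09 and 4.69 in the B cell-primed group.

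The 2 arms of miR-770, from within Meg3, were further apart in signal but steadier. The 3p assay came later than the 5p assay by 7.58, 3.47 and 6.48 cycles after DC priming and 5.57, 5.65 and 5.06 after B cell priming. For miR-380 the 3p minus 5p values were 2.43, -0.69 and 1.46 against 2.15, -1.09 and -0.57 cycles. Over the 6 samples the SD of these differences was 2.64 cycles for miR-337, 1.38 for miR-770 and 1.57 for miR-380. The median over all 351 pairs of tested members was 1.34, and all 3 arm pairs lay above it.

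Among the 3 star-strand assays the spacing differed from hairpin to hairpin. The Ct of miR-433* minus that of miR-433 was 2.74, 0.61 and -1.2 cycles in the DC-primed group and 2.08, 1.35 and 0.66 in the B cell-primed group. miR-485* trailed miR-485 by 2.29, 0.55 and 1.5 against 1.56, 1.75 and 1.75 cycles, with an SD over the 6 samples of 0.57, below the median over member pairs. miR-299* minus miR-299 varied most, at -6.51, -5.47 and 0.19 against -4.03, -9.78 and -1.18 cycles (SD 3.64), and miR-299 itself reached a Ct of 35 in both groups. The human-named miR-300 assay was 1.98 to 4.37 cycles earlier than the mouse-named one in all 6 samples. The groups overlapped in each of these star-strand pairs.

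Some members followed the sample as a whole and others did not. The per-sample number subtracted by the authors was 26.2, 28.5 and 30.5 cycles after DC priming and 26.4, 27.1 and 27.6 after B cell priming. The Ct of miR-382 was 29.68, 32.62 and 34.88 against 30.12, 30.81 and 31.74, close to parallel with that number, so that its level had an SD over the 6 samples of 0.35. miR-341 and miR-433 behaved alike, with 0.43 and 0.49. The closest pair of members over the 6 samples was miR-381 and miR-496, whose Ct values differed by 0.5 to 1.28 cycles (SD 0.26), followed by miR-382 with miR-341 (SD 0.27).

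In contrast, the Ct of miR-154, miR-409-5p and miR-329 stayed within 2 cycles in all samples. That held for 3 of 31 members (9.68%) and for 6.27% of all assays. miR-154 spanned 1.47 cycles and was earliest in DC-primed sample 3, in which 25 of 31 members were at their latest. The Ct of miR-409-5p was 29.07, 29.19 and 29.95 in the DC-primed group and 28.44, 28.95 and 29.2 in the B cell-primed group, and miR-329 spanned 1.63 cycles.

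After normalisation these 3 were the tested members with the highest differences toward DC-primed cells. miR-154 was at 4.80, 6.73 and 10.2 after DC priming and 4.98, 5.55 and 6.43 after B cell priming, and DC-primed sample 3 stood far above the rest. Its difference was 1.59 ± 1.26 (SE; limma adjusted p = 0.961), and 0.11 without DC-primed sample 3. miR-329 differed by 1.13 ± 0.85 and miR-409-5p by 0.79 ± 0.91 (SE), with round differences of -0.17, 1.19 and 2.37 and of -0.80, 1.10 and 2.08. Without DC-primed sample 3 they differed by 0.32 and 0.018. In each the value was negative in round 1 and highest in round 3, whose DC-primed sample had the latest Ct values overall. Their levels thus move with the per-sample number, and its part in their differences was not tested.

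**Figure D5:**
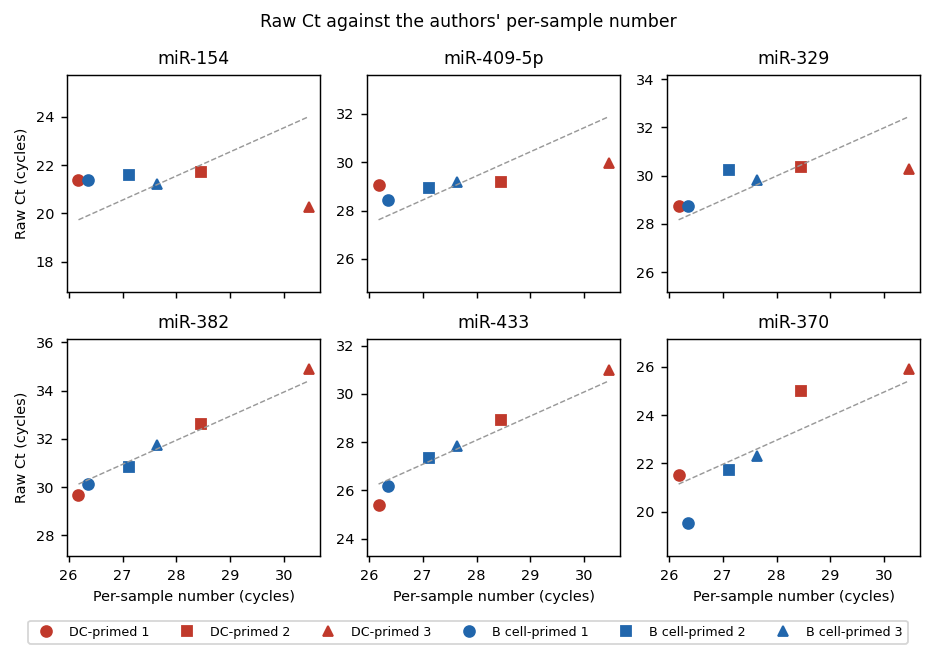
Raw Ct (y axis, cycles) against the authors' per-sample number (x axis, cycles) for 6 members, 1 point per sample. The dashed line is a Ct that follows the number cycle for cycle. miR-382 and miR-433 lie near it, while miR-154, miR-409-5p and miR-329 stay within 2 cycles.

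On the authors' scale several members of the miR-379/miR-410 cluster differed strongly in round 1 and turned over in round 3. miR-379 was at -8.07, -5.89 and -3.10 in the DC-primed group and -3.56, -4.85 and -4.84 in the B cell-primed group, with round differences of -4.51, -1.04 and 1.74. miR-369-5p gave -3.83, -0.37 and 1.81, miR-377 -2.98, -0.70 and 0.37, and, from the Rtl1 stretch, miR-337-3p -3.54, -2.19 and 2.25. Their mean differences of -1.27, -0.80, -1.11 and -1.16 all had 95% intervals that included 0. On raw Ct all of them were later in DC-primed cells in every round, without a turn. Without DC-primed sample 3 that of miR-379 was -2.57, and without round 1 it was 0.35.

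Of the remaining tested members, miR-495 was lower in every round by small amounts, at -0.54, -0.38 and -0.16. miR-496, miR-381, miR-770-3p, miR-485, miR-380-3p and miR-770-5p had mean differences of -0.71 to -0.05, and miR-494, miR-668 and miR-380-5p of 0.54 to 0.75. None of these had groups apart. The SD of the level was larger in the DC-primed group for 22 of the 27 tested members (81.5%) and for 79.6% of all 274 assays.

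The 4 members with a Ct of 35 or above in some sample were not tested, and no fold is given for them. For mmu-mir-411 the Ct was 36.9, 35.78 and 37.84 after DC priming and 33.87, 34.32 and 34.91 after B cell priming. It was at 35 or above in the one group and just below it in the other. On the authors' scale the groups overlapped, at -10.7, -7.32 and -7.38 against -7.52, -7.20 and -7.28. The Ct of miR-666-5p was 33.05, 37.32 and 37.52 after DC priming and 32.84, 33.78 and 31.93 after B cell priming. The Ct of miR-299 was 33.29, 36.81 and 36.58 against 33.01, 37.46 and 35.07, and thus reached the limit in both groups. miR-300 passed it only in DC-primed sample 3, at 35.41. The members just inside the limit were miR-369-5p, miR-382 and miR-495, with latest Ct values of 34.92, 34.88 and 34.86.

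Imprinted miRNAs of other loci were set beside the members. Of 10 listed, among them miR-296, miR-298, miR-335 and miR-675, 6 were measured and 4 were below 35 throughout, with 2 at 35 or above in DC-primed sample 3. Their summed level on the log2 scale was -0.10, -0.04 and 0.62 after DC priming and 3.49, 1.36 and 1.34 after B cell priming. The groups did not overlap, as was so in this direction for 8.03% of all tested assays taken singly. A sum follows the strongest assays, in B cell-primed sample 1 miR-296-5p with a Ct of 23.19. The list was chosen with earlier results of these data known, so the gap is no support. Of the 4 below 35 throughout, miR-296-5p, miR-296-3p and miR-298 had lower means in DC-primed cells, while miR-335-3p differed by 0.19. limma called none of them, with adjusted p = 0.532, 0.532 and 0.228 for the lower ones in that order. miR-296 and miR-298 belong to the same imprinted locus, Gnas, so they do not stand for several loci. The median of the Dlk1-Dio3 members overlapped between the groups, but a median and a sum are unlike measures and are not compared. Whether the loci differ was not tested.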

How the data were processed

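Per the labels' protocols, RNA was given poly(A) tails, reverse transcribed with a tagged oligo-dT primer and amplified with 1 forward primer per miRNA and a universal reverse primer. Per the file headers, the authors deposited raw Ct values, and dCt values on a log2 scale, made by subtracting 1 number per sample from its Ct values, a geometric mean per the headers. The authors' p-value, per the file headers, is from a two-tailed paired test over rounds. For how Ct was called, the sources used here give nothing. For the members no Ct was missing, and both tables matched within 0.02 cycles.

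Here assays with a Ct below 35 in all 6 samples were tested with limma 3.58.1 in R 4.3.3 (two-sided, without a block), and p-values were adjusted by Benjamini-Hochberg over all 274. The script was tested on simulated data. Alternatives were other scalings, Ct limits of 32 and 38, no filter, the round as a block and samples left out. The members and lists were chosen with earlier results of these data known. Every member is named, and no test was run on the members as a list. The rounds of the titles were used for the round differences and for the block, and the main fit did not pair the samples. Deviations of same-round samples correlated across assays at 0.16, 0.14 and 0.46. DC-primed round 1 correlated more with B cell-primed round 2, at 0.33, so the pairing is only weakly borne out. Precision is limited by 3 samples per group, and the depth of a Ct is unknown. Figures were drawn with matplotlib 3.10.9.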

Additional observations from a re-analysis of the deposited data

How the results depend on the processing

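Over the settings run, miR-758, miR-487b, miR-667, miR-370 and miR-154 kept the direction of their difference, and 65 values of the other tested members turned. On raw Ct and on RNY3 with snoRD47 the 5 kept it by construction, since their differences on the authors' scale exceed the opposing shift. Raw Ct moved the member median to -1.64 and RNY3 with snoRD47, a mean of widely scattered wells, to 0.92. Raw Ct turned miR-323-5p (-0.66), miR-329 (-0.20), miR-494 (-0.79), miR-380-5p (-0.58), miR-409-5p (-0.54), miR-668 (-0.67), miR-434-3p (-1.02) and miR-433 (-1.32), and each follows from the shift by construction. RNY3 with snoRD47 turned miR-495 (0.86), miR-381 (0.62), miR-377 (0.12), miR-496 (0.51), miR-382 (1.05), miR-337-3p (0.065), miR-770-3p (0.76), miR-341 (1.16), miR-369-5p (0.43), miR-485 (0.92), miR-380-3p (1.07), miR-337-5p (0.88) and miR-770-5p (1.18). The median tested assay as scale turned miR-433 (-0.025), and quantile normalization miR-380-3p (0.17) and miR-433 (-0.069).

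No member was called in any setting, and the smallest adjusted p of any member was 0.136 and the largest 1. With the round as a replicate block limma called 0 of 274 assays (33 at an unadjusted p under 0.05) and 0 members. Leaving out 1 sample or 1 round at a time gave 0 to 2 assays called, the 2 without DC-primed sample 3, and 5 when that sample also left the Ct filter. The member median then ranged from -0.75 to 0.025. With a Ct limit of 32, 16 members stayed below it in all samples. The cause of these changes was not tested.

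Leaving out samples or rounds also turned some members, with ranges of -0.045 to 1.24 for miR-494, -0.44 to 0.024 for miR-382, -0.16 to 1.39 for miR-668, -2.78 to 0.35 for miR-379, -2.87 to 0.025 for miR-337-3p, -0.95 to 0.25 for miR-770-3p, -0.27 to 0.24 for miR-341, -2.10 to 0.72 for miR-369-5p, -0.93 to 0.21 for miR-485, -0.47 to 1.29 for miR-434-3p, -0.77 to 0.78 for miR-380-3p, -1.24 to 0.91 for miR-337-5p, -0.83 to 1.07 for miR-770-5p and -0.42 to 0.24 for miR-433. With DC-primed sample 3 out of filter and fit, miR-382 (0.024), miR-341 (0.24), miR-434-3p (-0.35) and miR-337-5p (0.91) turned. Of the 3 alternatives added after seeing the data, leaving round 3 out of both turned miR-341 (0.042) and miR-337-5p (0.86), and the median tested member as scale turned miR-382 (0.063), miR-341 (0.17), miR-380-3p (0.083) and miR-770-5p (0.19). The member median was -0.35 without miR-154, miR-409-5p and miR-329.

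With 3 samples per group, the narrowest 95% interval of a tested member, that of miR-323-5p, ran from -0.73 to 2.08 on the log2 scale, and members with late Ct values lie in the range where primate assays also gave signal.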
